A study of Homo sapiens with 12 samples.

Results

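Transcripts of 10 genes of the BCL2 family and of the inhibitor of apoptosis (IAP) family were followed in HT1080 cells, a human fibrosarcoma line, by RNA sequencing of polyadenylated RNA. The genes were taken by name, as the rows BCL2L1, MCL1, BCL2A1, BAX, BAK1, BCL2L11, BBC3, PMAIP1, BIRC2 and BIRC3 of the PMA and ConA tables of normalized counts. All 10 were listed in both tables, which share 15459 genes, and all 10 passed the minimum of 10 normalized counts, as a mean over the 6 libraries of a table, for a test. The 12 libraries form 4 groups of 3. In the PMA experiment, cells treated with PMA (phorbol 12-myristate 13-acetate, an activator of protein kinase C) at 40 nM for 24 h were set beside controls labelled 1 to 3. In the ConA experiment, cells treated with ConA (concanavalin A, which binds mannose-rich glycans at the cell surface) at 40 µg/mL for 24 h were set beside separate controls, labelled 4 to 6. Cells of every group carried the wild-type genotype, grew in media without biotin and were moved to low serum (1% FBS) when treatment began, so each value is from a low-serum culture of 1 cell line. The labels do not say whether replicate libraries came from separate cultures, and the p-values below measure only the spread between these libraries, which may be technical.

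Proteins of the BCL2 family decide whether the outer membrane of the mitochondrion is opened during apoptosis. BCL-xL (gene BCL2L1), MCL1 and BFL1 (gene BCL2A1) hold the membrane closed by binding pro-apoptotic relatives, BAX and BAK1 form the pores, and the BH3-only proteins BIM (gene BCL2L11), PUMA (gene BBC3) and NOXA (gene PMAIP1) engage the anti-apoptotic members, NOXA with a preference for MCL1 and BFL1. cIAP1 (gene BIRC2) and cIAP2 (gene BIRC3) are ubiquitin ligases that are bound to TRAF proteins at TNF receptor complexes, and BIRC3, BCL2A1 and TRAF1 are known targets of NF-kB.

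The promoters of the 4 genes that changed at least 2-fold are printed to show which short motifs stand next to their start sites. They are RefSeq windows of GRCh38.p14, from 250 bases before the start to 50 bases after it, read 5′ to 3′ on the strand of the gene. BCL2A1 lies at chr15:79971147-79971446 on the minus strand, and BIRC3 at chr11:102317234-102317533, PMAIP1 at chr18:59899746-59900045 and BCL2L11 at chr2:111120664-111120963 lie on the plus strand. Capitals mark matches, on either strand, to a kappaB core (GGGNNNNNCC), an AP-1 site (TGANTCA), an ISRE core (GAAANNGAAA) or a GAS core (TTCNNNGAA).
BCL2A1: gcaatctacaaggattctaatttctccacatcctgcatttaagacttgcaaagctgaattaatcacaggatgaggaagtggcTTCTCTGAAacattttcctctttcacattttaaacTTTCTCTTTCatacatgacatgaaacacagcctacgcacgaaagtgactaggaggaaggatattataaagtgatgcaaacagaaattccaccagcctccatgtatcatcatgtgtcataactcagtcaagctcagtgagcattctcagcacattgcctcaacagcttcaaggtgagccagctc
BIRC3: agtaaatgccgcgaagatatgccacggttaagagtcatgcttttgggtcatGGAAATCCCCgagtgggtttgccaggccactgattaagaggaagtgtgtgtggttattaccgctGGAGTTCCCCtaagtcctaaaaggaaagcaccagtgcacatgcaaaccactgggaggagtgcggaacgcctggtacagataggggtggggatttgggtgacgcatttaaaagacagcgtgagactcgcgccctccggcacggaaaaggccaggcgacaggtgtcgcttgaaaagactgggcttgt
PMAIP1: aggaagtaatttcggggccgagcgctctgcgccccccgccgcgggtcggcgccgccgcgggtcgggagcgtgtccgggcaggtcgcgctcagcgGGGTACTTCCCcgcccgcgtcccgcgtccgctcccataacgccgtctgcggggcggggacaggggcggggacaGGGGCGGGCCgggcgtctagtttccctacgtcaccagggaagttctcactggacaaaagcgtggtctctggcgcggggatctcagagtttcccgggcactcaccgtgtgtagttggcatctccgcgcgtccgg
BCL2L11: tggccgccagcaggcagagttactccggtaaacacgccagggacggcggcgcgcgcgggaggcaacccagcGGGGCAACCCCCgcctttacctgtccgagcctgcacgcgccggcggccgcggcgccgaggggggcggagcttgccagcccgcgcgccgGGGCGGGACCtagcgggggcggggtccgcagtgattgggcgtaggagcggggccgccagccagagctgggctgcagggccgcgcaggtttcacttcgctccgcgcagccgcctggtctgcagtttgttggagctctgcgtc

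The BIRC3 window held the kappaB cores GGAAATCCCC, at bases -199 to -190 counted from the first transcribed base, and GGAGTTCCCC, at -135 to -126. The BCL2A1 window held no kappaB core, but it had an ISRE core, TTTCTCTTTC at -133 to -124, and a GAS core, TTCTCTGAA at -168 to -160. Matches to the kappaB core in the PMAIP1 window were GGGTACTTCC at -156, GGTACTTCCC at -155, which overlaps the former, and GGGGCGGGCC at -83, and the BCL2L11 window had 4, of which 3 overlap. None of the other patterns was found in the PMAIP1, BCL2L11 and BIRC3 windows. Of all 35116 windows of the same length, 58.7% held a kappaB core, 7.71% an AP-1 site, 3.57% an ISRE core and 7.66% a GAS core, so a kappaB core by itself is common, and 7 of the 11 windows of these genes held one. Among the remaining members, the BBC3 window held an AP-1 site, TGAGTCA at -113 to -107, and 2 overlapping ISRE cores. A promoter of MCL1 is not listed in the table. BIRC3 and BIRC2 are neighbours in the same orientation on chromosome 11, and their first windows start 29730 bases apart.

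The values are normalized counts per gene. To estimate depth, they were taken as counts divided by 1 factor per library, which was found from the steps of low values. On this assumption, an estimated 33641981 to 45595027 reads per library (median 40970198) stood behind them. The mean squared difference between replicate libraries was then 3.52 to 16.5 times its sampling variance, so the spread between libraries sets the precision. Changes were tested with limma on log2(normalized count + 1) in each table, with p-values adjusted by the Benjamini-Hochberg method over all 15153 (PMA) or 15139 (ConA) genes tested. A gene was called when it changed 2-fold or more with an adjusted p no greater than 0.0001, and it is said to have risen or fallen when the adjusted p was no greater than 0.05. All 8 mesenchymal marker genes examined, VIM and FN1 among them, were listed in both tables, each with a mean of at least 10 in every group. Their sum was 474213 to 713833 normalized counts per library, with VIM highest in the PMA table and FN1 in the ConA table. The mean sum went from 558453 to 630396 with PMA, where 4 genes rose and 4 fell at the 0.05 level. With ConA it went from 679236 to 491057, and 2 genes rose and 6 fell. Of 6 epithelial genes, 3 were listed in the PMA table, without EPCAM, CDH1 and GRHL2, and 5 in the ConA table, without GRHL2, and their sum was 170.1 to 325 per library, mostly CLDN4 and KRT19. Of 7 T and NK cell genes (CD3D, CD3E, CD3G, CD2, CD247, NKG7 and GNLY), all were listed in the PMA table and only CD3D in the ConA table. In these bulk libraries, fewer cells of a type and less RNA per cell cannot be told apart, and neither can a treatment and the experiment it was run in.

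With PMA, BCL2A1 and BIRC3 were called higher and BCL2L11 was called lower. These are 2 of 10 members higher, where 4.03% of all genes were, and 1 of 10 lower, where 4.61% were. The members were chosen with earlier results of these data known. Their counts and medians, here and for ConA, are therefore descriptions and not a test of the set. At the 0.05 level alone, 6 members rose (MCL1, BCL2A1, BAX, BAK1, BIRC2 and BIRC3), beside 32.8% of all genes, and 3 fell (BCL2L11, BBC3 and PMAIP1), beside 30.5%. The groups were separate for 9 members, BCL2L1 being the exception, and the same held for 67.9% of all genes.

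With ConA, BCL2A1, PMAIP1 and BIRC3 were called higher. No member was called lower by limma, although 3 fell at the 0.05 level. The background was 5.83% of all genes called higher and 2.88% called lower. At the 0.05 level alone, 7 members rose (MCL1, BCL2A1, BAK1, BCL2L11, PMAIP1, BIRC2 and BIRC3) and 3 fell (BCL2L1, BAX and BBC3), beside 32.8% and 32.5% of all genes. The groups did not overlap for 9 members, BAX being the exception, and for 69.3% of all genes. The median log2 fold change of the 10 members was 0.20 with PMA and 0.76 with ConA, where the medians over all genes tested were 0.0029 and -0.0022.

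**Figure D1:**
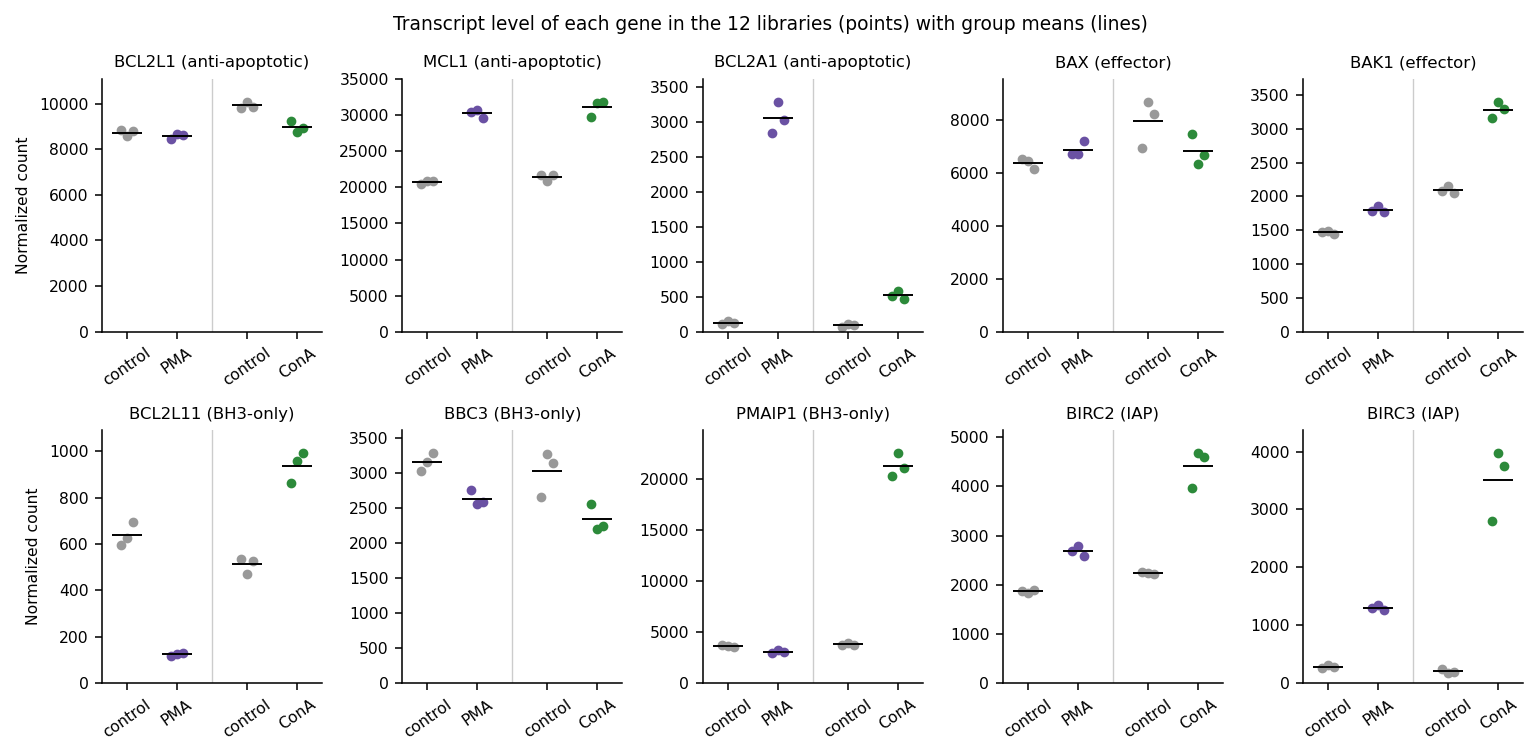
Normalized counts (vertical axis, starting at 0) of each gene in the 12 libraries, with 1 point per library, a line at the mean of each group of 3, and the PMA experiment to the left of the ConA experiment in each panel. BCL2A1 and BIRC3 stand above the controls with both treatments, BCL2L11 lies below them with PMA and above them with ConA, and PMAIP1 reaches 20241 to 22489.7 with ConA only.

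Among the anti-apoptotic genes, BCL2L1 had the smallest changes. Its normalized counts were 8838, 8572 and 8786 in the PMA controls and 8451, 8667 and 8643 with PMA, groups that overlapped (log2 fold change of -0.02, 95% confidence interval -0.10 to 0.05, adjusted p = 0.567). In the ConA experiment the controls held 9806, 10076 and 9869 and the treated libraries 9251, 8775 and 8948. All 3 treated libraries lay below all 3 controls, and the mean fell by 9.33% (log2 fold change of -0.14, confidence interval -0.25 to -0.04, adjusted p = 0.0197). The log2 fold change with ConA was -0.12 (adjusted p = 0.0767) without ConA replicate 2 and -0.14 (adjusted p = 0.0662) without ConA replicate 3, and it ran from -0.16 to -0.12 over all libraries left out in turn. With PMA the log2 fold change was -0.17 (adjusted p = 0.00112) after quantile normalization. The exons of BCL2L1 share 1424 of 3314 bases, 43.0%, with the antisense gene ABALON, and since it is not given in the sources used here whether reads were assigned by strand, reads of the pair may have been exchanged. In the ConA table ABALON went from 742 ± 91.7 to 877 ± 52.4 (SD, n = 3).

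MCL1, whose protein is short-lived, rose by nearly the same factor with both treatments in the values as given. After quantile normalization its log2 fold change was 0.37 with PMA and 0.65 with ConA. PMA-treated libraries held 30440.4, 30698 and 29615 counts and their controls 20448, 20942 and 20936. The ConA controls held 21736, 20891 and 21740.1 and the treated libraries 29747, 31754 and 31862. Neither pair of groups overlapped, and the ratio of means was 1.46 with PMA (log2 fold change of 0.54, SE 0.04, adjusted p = 1.64e-07) and 1.45 with ConA (log2 fold change of 0.54, SE 0.05, adjusted p = 6.87e-07), both below the 2-fold threshold.

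BCL2A1, which encodes the NF-kB-inducible protein BFL1, was among the genes with the largest rise in the PMA table, at place 35 of 15153. Its counts were 109.7, 148 and 130.0 in the PMA controls and 2837, 3285 and 3032 with PMA, a ratio of means of 23.6 (log2 fold change of 4.56, SE 0.10, adjusted p = 1.74e-11). In the ConA experiment they went from 70.9, 115 and 95.2 in the controls to 514, 585 and 464 with ConA, a ratio of 5.56 (log2 fold change of 2.48, SE 0.15, adjusted p = 5.92e-09). Every treated library exceeded every control of its table. When the variance was modelled without a trend over the mean level, the adjusted p with ConA was 1.54e-04, above the 0.0001 that a call needs, and the other settings left the call in place. Because lymphocytes express BCL2A1 and BIRC3, the T and NK cell genes are given beside them. Their sum ran from 583 to 642 normalized counts in the PMA controls and from 874 to 1226 with PMA, a ratio of means of 1.69, with 5 of 7 genes higher at the 0.05 level, and their part in the result was not tested. In the ConA table, where CD3E, CD3G, CD2, CD247, NKG7 and GNLY were not listed and CD3D ran from 21.6 to 31.0, both genes rose as well. Of 5 monocyte genes CD14 was in neither table, 4 were listed in the PMA table and 3 in the ConA table. Their sum, mostly CD68, ran from 5267 to 5747 in the PMA controls, from 7513 to 7706 with PMA, from 6174 to 6601 in the ConA controls and from 17546 to 20766 with ConA, where 1 gene of the list rose and 1 fell at the 0.05 level. Of 5 genes shared by leukocytes, all were listed in the PMA table and 4, without PTPRC, in the ConA table. Their sum, mostly LCP1, ran from 7443 to 7485 in the PMA controls and from 7735 to 8709 with PMA. In the ConA table it ran from 8327 to 8860 in the controls and from 9535 to 9992 in the treated libraries, and 3 genes of the list rose and none fell with each treatment. The part of the monocyte and leukocyte genes was not tested either.

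The pore-forming members were each under the 2-fold threshold with both treatments. BAX had counts of 6513, 6446 and 6166 in the PMA controls and 6704, 6723 and 7197 with PMA. All treated values lay above the controls, and the rise of 7.84% was narrow (log2 fold change of 0.11, SE 0.04, adjusted p = 0.0403). Its log2 fold change was -0.051 after quantile normalization, with an adjusted p of 0.328, and with any 1 library of the experiment left out it was 0.075 to 0.13, with an adjusted p of 0.0509 to 0.174. With ConA the groups overlapped, from 6952, 8692 and 8250.1 in the controls to 7477, 6338 and 6669.5 in the treated libraries, and the mean fell by 14.3% (log2 fold change of -0.22, SE 0.08, adjusted p = 0.0265). That adjusted p was between 0.0804 and 0.116 without ConA replicate 2, ConA replicate 3, ConA control replicate 5 or ConA control replicate 6, and the log2 fold change ran from -0.31 to -0.15 over all libraries left out in turn. The direction of each BAX change was kept in these fits, with fewer libraries in each.

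BAK1 rose with both treatments. It held 1467, 1493 and 1448 in the PMA controls and 1787, 1859 and 1765 with PMA, a ratio of 1.23 (log2 fold change of 0.30, SE 0.04, adjusted p = 1.17e-04). For the other treatment 2085, 2159 and 2045 were counted in the controls and 3159, 3397 and 3293 with ConA, a ratio of 1.57 (log2 fold change of 0.65, SE 0.05, adjusted p = 1.48e-07). Its groups were separate in both tables, and both ratios stayed under 2.

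The BH3-only genes included the members whose changes differed most between the treatments. BCL2L11 was counted at 597, 625 and 695 in the PMA controls and at 118, 124 and 129 with PMA, so that the control mean was 5.16 times the treated mean (log2 fold change of -2.36, SE 0.09, adjusted p = 9.53e-10). It was the gene at place 141 from the lowest change of 15153. In the ConA experiment it was at 536, 472 and 529 in the controls and rose to 865, 957 and 992, a ratio of 1.83 (log2 fold change of 0.87, SE 0.08, adjusted p = 3.33e-07). The groups were separate in each table and stood in opposite order. BCL2L11 shares 727 of its 6658 exon bases, 10.9%, with the non-coding gene MIR4435-2HG on the opposite strand, and the mean of that gene moved the other way in both tables, from 3043 ± 269.9 to 3955 ± 125 with PMA and from 3494 ± 178 to 2514 ± 209.7 with ConA (SD, n = 3).

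PMAIP1 also fell with PMA and rose with ConA. Its counts were 3694, 3646 and 3494 in the PMA controls and 2944, 3210.0 and 3072 with PMA, so the mean fell by 14.8% (log2 fold change of -0.23, SE 0.04, adjusted p = 7.74e-04). With ConA it went from 3765, 3909 and 3679 to 20241, 22489.7 and 21021, a ratio of 5.62 (log2 fold change of 2.49, SE 0.05, adjusted p = 4.22e-14). No ConA library came near its controls, and the SE of this change was the smallest among the members called with ConA. BBC3 fell with both treatments. PMA-treated libraries held 2756, 2556 and 2580.3 counts and their controls 3032, 3154 and 3279, and the mean fell by 16.6% (log2 fold change of -0.26, SE 0.05, adjusted p = 4.45e-04). The ConA controls held 2658, 3267 and 3139 and the treated libraries 2556, 2201 and 2244, and the mean fell by 22.8% (log2 fold change of -0.37, SE 0.08, adjusted p = 9.17e-04). Its groups were separate in both tables, with the lowest ConA control, 2658, close above the highest treated library, 2556.

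Both IAP genes rose with both treatments, with larger folds for BIRC3. BIRC2 was counted at 1879, 1829 and 1884 in the PMA controls and 2689.8, 2788 and 2579 with PMA, a ratio of 1.44 (log2 fold change of 0.53, SE 0.04, adjusted p = 1.01e-06). With ConA it went from 2269, 2230.1 and 2211 to 3971, 4676 and 4605, a ratio of 1.98 (log2 fold change of 0.98, SE 0.06, adjusted p = 1.11e-08), and its log2 change lay just below the threshold of 1. Without ConA replicate 1 that change was 1.05 and BIRC2 was called, which made 4 members called with ConA. BIRC3 was at 267, 309 and 279 in the PMA controls and at 1303, 1353 and 1257 with PMA, a ratio of 4.58 (log2 fold change of 2.19, SE 0.07, adjusted p = 2.80e-10). Its counts for the ConA experiment were 248, 175 and 183 in the controls and 2793, 3971 and 3748 with ConA, a ratio of 17.3 (log2 fold change of 4.11, SE 0.14, adjusted p = 5.13e-12), at place 108 of 15139. No treated library overlapped the controls for either gene, and no stretch of 50 or more identical bases was found between their transcripts.

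**Figure D2:**
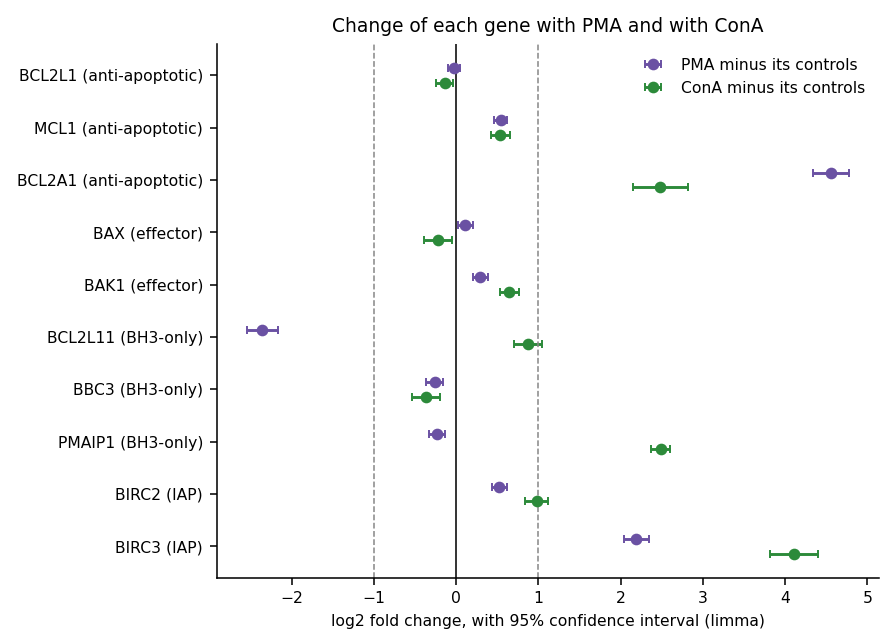
Log2 fold change of each gene (horizontal axis) with its 95% confidence interval from limma, purple for PMA and green for ConA, each against 3 controls of its own table, with dashed lines at changes of -1 and 1. BCL2L11, PMAIP1 and BAX have intervals on opposite sides of 0 for the 2 treatments, those of BAX close to 0. The intervals of MCL1 lie on each other.

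The spread among the ConA libraries was not even. ConA replicate 1 was the treated library nearest to the control mean for 9 of the 10 members, with replicate 3 nearest for BCL2A1, and it was nearest for 69.8% of the 1318 genes called with ConA. In the PMA experiment replicates 1, 2 and 3 were nearest for 3, 2 and 5 members and for 33.3%, 28.1% and 38.6% of the 1310 genes called. Apart from the gain of BIRC2, no member gained or lost its call with ConA when that replicate was left out.

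Whether a gene changed differently with PMA and with ConA was tested by limma over all 12 libraries, as the PMA change minus the ConA change, among 15030 genes. Of the members, 4 differed by 1 or more on the log2 scale with an adjusted p no greater than 0.0001, beside 10.6% of all genes, and 7 differed at the 0.05 level, beside 61.1%. The difference was -3.23 ± 0.12 (SE) for BCL2L11 (adjusted p = 1.62e-13) and -2.72 ± 0.07 (SE) for PMAIP1 (adjusted p = 1.13e-15), so both BH3-only genes were lower with PMA relative to ConA. BCL2A1 rose more with PMA, by 2.07 ± 0.20 (SE), with an adjusted p of 1.25e-07, and BIRC3 rose more with ConA, with a difference of -1.92 ± 0.18 (SE) and an adjusted p of 5.41e-08. BIRC2 and BAK1 also rose more with ConA, with differences of -0.45 ± 0.08 (SE) and -0.35 ± 0.07 (SE) (adjusted p = 1.06e-04 and 1.88e-04). For BAX the difference was 0.33 ± 0.10 (SE) (adjusted p = 0.00969), and after quantile normalization it was 0.16, with an adjusted p of 0.173.

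No difference was detected for the remaining 3 members. The confidence interval of the difference was 0.0011 to 0.23 for BCL2L1 (adjusted p = 0.0748), -0.10 to 0.32 for BBC3 (adjusted p = 0.368) and -0.12 to 0.13 for MCL1 (adjusted p = 0.939), and differences within these intervals remain possible. For BCL2L1 the difference was 0.20 after median centring (adjusted p = 0.00594), and without ConA replicate 1 its adjusted p was 0.0439. For MCL1 the value depended on the scaling, as quantile normalization gave -0.27 with an adjusted p of 9.20e-04. BCL2A1 and BIRC3 were the 2 members called with both treatments, among 338 of 14661 genes tested in both, and in both the direction was the same.

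**Figure D3:**
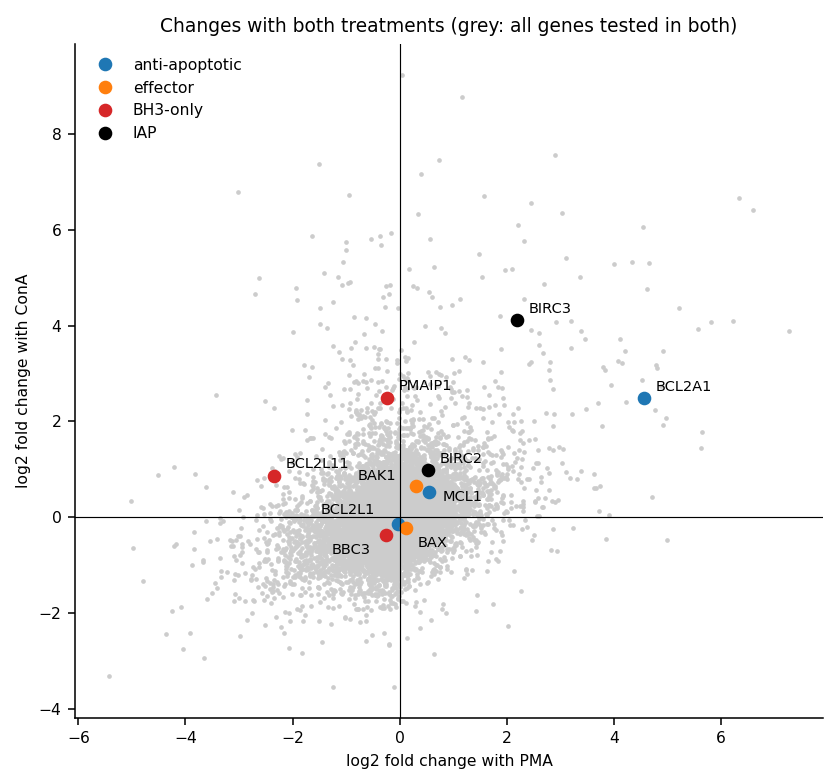
Log2 fold change with PMA (horizontal axis) against that with ConA (vertical axis), each against the controls of its own table, for all genes tested in both (grey) and for the 10 genes in the colour of their role. BCL2A1 and BIRC3 lie far out in the upper right, BCL2L11 in the upper left, PMAIP1 high above 0 with a PMA change near 0, and the other 6 genes near the centre.

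Levels were set beside each other per kilobase of the longest principal transcript, which assumes that this transcript was the one present. In the PMA controls the order from high to low was BAX, MCL1, BCL2L1, PMAIP1, BBC3, BAK1, BIRC2, BCL2L11, BCL2A1 and BIRC3, and the same order held in the ConA controls. It ran from 8039 ± 233 normalized counts per kilobase for BAX to 54.8 ± 4.08 for BIRC3 in the PMA controls (SD, n = 3), and from 10044 ± 1141 to 38.9 ± 7.69 in the ConA controls. BIRC2 and BCL2L11 overlapped between libraries in the PMA controls, and all other neighbours were separate in both sets of controls. With PMA, BCL2A1 moved up from 125 ± 18.8 to 2954 ± 217 counts per kilobase and stood next below BCL2L1, at 3290.0 ± 45.4. BCL2L11 went from 419.8 ± 33.3 to 81.3 ± 3.58, the lowest level of the 10, and no neighbours overlapped with PMA. With ConA, PMAIP1 went from 1943 ± 59.6 to 10909 ± 586 per kilobase, above BAX at 8611 ± 739 and MCL1 at 7915 ± 303, which overlapped each other. BIRC3, at 674 ± 120.4, and BCL2L11, at 616 ± 43.1, overlapped with ConA. BCL2A1 had the lowest mean, 504 ± 59.2, which was separate from BCL2L11 but overlapped BIRC3.

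**Figure D4:**
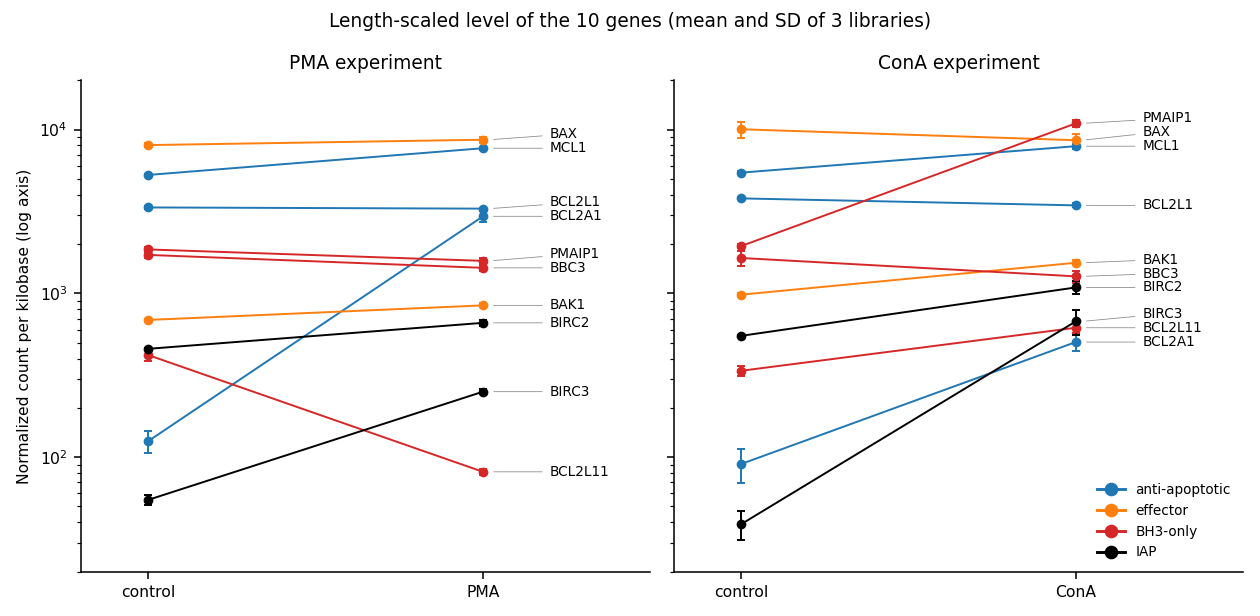
Normalized counts per kilobase of transcript (vertical log axis) of the 10 genes in the controls and the treated libraries of each experiment, as the mean of 3 libraries with bars of 1 SD, in the colour of each role. The line of BCL2A1 climbs to just below BCL2L1 with PMA while that of BCL2L11 drops to the bottom, and PMAIP1 climbs to the top with ConA.

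The levels of PMAIP1, BCL2L11, BCL2A1, BBC3, BAX and BCL2L1 relative to MCL1 were computed per kilobase in every library, as a description that was chosen after the values were seen. PMAIP1, whose product binds MCL1, was at 0.351 ± 0.0139 of the MCL1 level in the PMA controls and 0.205 ± 0.00871 with PMA (SD, n = 3). For ConA this ratio was 0.356 ± 0.0189 in the controls and 1.38 ± 0.0491 with ConA, so the controls of both experiments were alike and the treated groups lay on either side of them. For BCL2L11 the ratio went from 0.0794 ± 0.00557 to 0.0106 ± 0.000634 in the PMA experiment and from 0.0616 ± 0.00283 to 0.0778 ± 0.00265 in the ConA experiment. The BCL2A1 ratio went from 0.0237 ± 0.00328 to 0.384 ± 0.0267 in the PMA experiment and from 0.0167 ± 0.00428 to 0.0638 ± 0.00758 in the ConA experiment. The ratios of BBC3, BAX and BCL2L1 to MCL1 were lower with both treatments than in the controls of the same table. MCL1 itself rose by a factor of 1.46 with PMA and 1.45 with ConA, which by itself lowers every ratio to it. With PMA, the mean of BCL2L1 changed by -1.66% and that of BAX by 7.84%, although their ratios fell. All ratios here are of transcripts, and protein was not measured in these libraries.

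For each of the 4 called genes, the genes with the most similar pattern were found by Euclidean distance over the 12 libraries, on log2(value + 1) minus the mean of the controls of the same table, among 14661 genes. BCL2A1 was nearest to MMP9 (distance 0.851), a gelatinase gene, whose log2 fold changes were 4.77 with PMA and 2.25 with ConA, followed by CYB5R2 (1.25) and SERPINA1 (1.32). BCL2L11 was nearest to TXNIP (distance 0.408; -2.54 with PMA and 0.81 with ConA), then RNF43 (0.537) and NGFR (0.687). The nearest genes to PMAIP1 were ZC3HAV1 (distance 0.352; -0.25 with PMA and 2.50 with ConA), TAP1 (0.405) and PARP12 (0.437). ZC3HAV1, TAP1 and PARP12 are known as interferon-induced genes. BIRC3 was nearest to SOD2 (distance 0.948; 2.32 with PMA and 4.56 with ConA), the gene of the mitochondrial superoxide dismutase, then ADAP1 (0.996) and RSPO3 (1.01). The distances are a description with no test.

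Of 44 further genes of the pathway in 6 lists, 40 were tested in each table. With PMA, 5 were called higher and 1 lower, and 20 rose and 12 fell at the 0.05 level. Over all genes the shares were 4.03% and 4.61% called, and 32.8% and 30.5% at the 0.05 level. With ConA, 7 were called higher and none lower by limma, and 21 rose and 8 fell, beside 5.83% and 2.88% of all genes called and 32.8% and 32.5% at the 0.05 level. The counts of each list below stand against these shares. They are descriptions, since the lists were also chosen with earlier results of these data known. The median log2 fold change over these genes was 0.15 with PMA and 0.23 with ConA.

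Among the other anti-apoptotic relatives, 2 of 3 genes rose with PMA and 1 of 3 with ConA, with medians of 0.53 and -0.0018. BCL2L2, the gene of BCL-w, went from 1494 ± 78.0 to 2995 ± 79.3 counts with PMA (log2 fold change of 1.00, adjusted p = 9.33e-09) and was called, just past the 2-fold threshold. With ConA its log2 fold change was 0.28 (adjusted p = 9.93e-04), and the treatments differed by 0.72 (adjusted p = 3.75e-07). BCL2L12 rose with PMA (0.53, adjusted p = 4.01e-05) and was at -0.07 with ConA (adjusted p = 0.489). Among other pro-apoptotic members, 5 of 8 rose and 2 fell with PMA, and 3 rose and 3 fell with ConA, with medians of 0.18 and -0.046. BIK, a BH3-only gene, was called higher with both treatments, from 32.0 ± 1.94 to 79.0 ± 5.39 with PMA and from 21.9 ± 6.21 to 76.2 ± 3.64 with ConA. BNIP3L, which encodes a mitophagy receptor, rose slightly with PMA (0.23, adjusted p = 3.78e-04) and fell from 5467 ± 190.4 to 2995 ± 96.1 with ConA (log2 fold change of -0.87, adjusted p = 5.02e-09).

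No other gene with a BIR domain was called by limma with either treatment. At the 0.05 level 2 of 4 rose and 2 fell with PMA, and 1 rose and 2 fell with ConA, with medians of 0.062 and -0.099. BIRC6 rose with both treatments (0.36 with PMA and 0.62 with ConA, adjusted p = 1.21e-05 and 5.86e-05), and NAIP fell with both (-0.59 and -0.65, adjusted p = 0.00789 and 0.00158). Of the caspase and apoptosome genes, 2 of 9 rose and 5 fell with PMA (median of -0.26), and 7 rose and 1 fell with ConA (median of 0.72). CASP8, the initiator caspase of death receptors, went from 869 ± 54.0 to 1915 ± 190.0 with ConA (1.14, adjusted p = 1.88e-08) and was at 0.09 with PMA (adjusted p = 0.183), a difference of -1.04 (adjusted p = 1.42e-07). CASP10, its neighbour in function, went from 326 ± 21.5 to 693 ± 61.8 with ConA (1.08, adjusted p = 1.16e-07) and fell with PMA (-0.50, adjusted p = 7.11e-04).

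The genes that regulate IAPs and death receptor complexes held most of the calls, with 3 of 12 called higher and 1 lower with PMA and 4 called higher with ConA (medians of 0.40 and 0.63). At the 0.05 level, 7 of the 12 rose and 3 fell with PMA, and 7 rose and 2 fell with ConA. XAF1, whose product antagonizes XIAP and which is known as an interferon-induced gene, fell from 249.6 ± 5.06 to 65.0 ± 5.44 with PMA (log2 fold change of -1.93, adjusted p = 4.66e-08). With ConA it rose from 302 ± 28.4 to 7005 ± 671 (4.53, adjusted p = 5.80e-15), and the treatments differed by -6.46 (adjusted p = 4.88e-17). TRAF1, which binds the cIAP proteins, rose from 618 ± 26.1 to 4332 ± 63.9 with PMA and from 432 ± 42.5 to 4099.6 ± 393 with ConA. TNFAIP3, which encodes the NF-kB inhibitor A20, rose from 528 ± 21.1 to 4014 ± 11.3 and from 458 ± 45.7 to 7829 ± 1207. CFLAR, the gene of the caspase-8 inhibitor FLIP, rose from 1140.3 ± 32.1 to 2875 ± 68.8 and from 1114 ± 26.0 to 3942 ± 363. All 3 rose more with ConA, with differences of -0.44, -1.16 and -0.48 (adjusted p = 0.00167, 4.78e-07 and 8.08e-05). Of 4 genes of MCL1 and BCL2 protein turnover, 2 rose with each treatment and none was called or fell (medians of 0.11 and 0.12). USP9X, a deubiquitinase of MCL1, rose with PMA (0.23, adjusted p = 0.00339) and was at 0.013 with ConA (adjusted p = 0.886). FBXW7, a ubiquitin ligase subunit, rose with ConA (0.27, adjusted p = 0.00200) and was at 0.054 with PMA (adjusted p = 0.464). The difference between the treatments was 0.22 for USP9X (adjusted p = 0.0719), not past the 0.05 level, and -0.21 for FBXW7 (adjusted p = 0.0357).

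**Figure D5:**
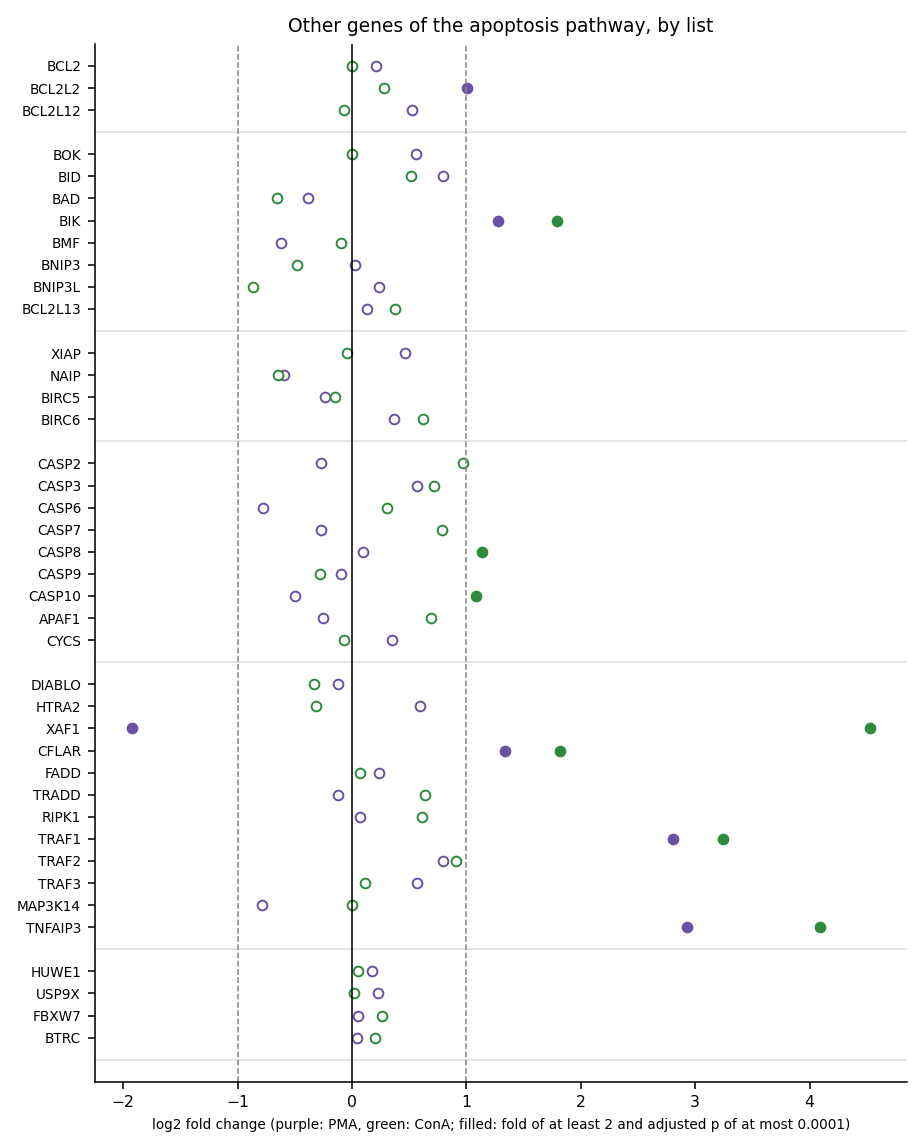
Log2 fold change (horizontal axis) of the other pathway genes tested, grouped by list, purple for PMA and green for ConA, filled where the gene was called, with dashed lines at -1 and 1. XAF1 is at -1.93 with PMA and 4.53 with ConA, and TRAF1, TNFAIP3 and CFLAR are filled on the right for both.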

How the data were processed

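Polyadenylated RNA of 12 HT1080 libraries was sequenced by a service company. The authors deposited 1 table of signal values (normalized counts per symbol) for each experiment. The submitters' processing notes name Partek, Bowtie2, STAR, DESeq2, hg19 and mm10, without a role for each, and whether reads were counted by strand is not given in the sources used here. After multiplication by the best factor of each library, 80.2% to 82.5% of values between 5 and 60 lay within 0.02 of a whole number. Whole reads were therefore not recovered, and count models were not run. Genes with a mean of at least 10 were tested with limma 3.58.1 in R 4.3.3, with a variance trend, on log2(value + 1), two-sided, within each table, and over all 12 libraries for the difference between treatments. An exact permutation test of 3 against 3 libraries cannot go below p = 0.1 and was not used. Columns were assigned to groups by their names and the sample titles, and no column was left over. The members and gene lists were chosen with earlier results of these data known, and counts over them are descriptions. Named pathway genes were those called in either table and, where fewer than 2 of a list were, the 2 with the largest change. Alternatives covered a pseudocount of 0.1 or 10, a minimum mean of 50 or none, scaling (median centring or quantile normalization), no variance trend, 1 fit of all libraries, the thresholds, a replicate block and leaving out each library. The code of the test was run on simulated data with the same dispersion for all genes and no uneven libraries. That run does not measure the precision of the test in these data. Promoters and gene names came from RefSeq tables, and transcript lengths and exon overlaps from GENCODE v29 on another build than the authors' hg19. Tables were made with pandas 2.3.3 and numpy 2.4.6 and figures with matplotlib 3.10.9, in Python 3.11.15.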

Additional observations from a re-analysis of the deposited data

Results flagged for a closer look

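The changes with PMA and with ConA differed for 4 genes by limma's test of the difference itself, the PMA change minus the ConA change, at a size of at least 1. The difference was 2.07 ± 0.20 (SE) for BCL2A1 (adjusted p = 1.25e-07), -3.23 ± 0.12 (SE) for BCL2L11 (adjusted p = 1.62e-13), -2.72 ± 0.07 (SE) for PMAIP1 (adjusted p = 1.13e-15) and -1.92 ± 0.18 (SE) for BIRC3 (adjusted p = 5.41e-08). BCL2L11 fell with PMA and rose with ConA, and PMAIP1 also fell with PMA and rose with ConA. Treatment and experiment cannot be told apart in these differences, since each treatment was run with its own controls.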

How the results depend on the processing

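Of 540 values of member changes under other settings, 514 kept their direction and side of the threshold, 17 newly passed it, 1 no longer did and 8 changed sign. Settings that changed only the thresholds reused the same fits, so their values could not change sign. Apart from BIRC2 without ConA replicate 1, the values that newly passed came from dropping the minimum fold. The value that no longer passed was BCL2A1 with ConA without the variance trend (adjusted p = 1.54e-04), which left 2 members called with ConA. With no minimum fold at an adjusted p of at most 0.05, 9 members were called with PMA and 10 with ConA (3 each at the thresholds used), and 7 for the difference between the treatments (4). Leaving out each library in turn gave 3 members called with PMA each time, 3 to 4 with ConA (4 without ConA replicate 1) and 4 for the difference. All genes called were 1310 with PMA, 867 without the variance trend and 9586 without a minimum fold at an adjusted p of at most 0.05. With ConA these were 1318, 662 and 9891, and the difference had 1587 and 9183. The changes that took the other sign were small in the main fit. Quantile normalization gave -0.051 for BAX with PMA, and differences of -0.047 for BCL2L1 and -0.27 for MCL1. The last of these was past the 0.05 level by limma (adjusted p = 9.20e-04). With each library left out in turn, the difference for MCL1 ran from -0.026 to 0.025. The replicate block, possible for PMA only, gave 3 members and 1264 genes called. Same-numbered libraries correlated at -0.20, 0.27 and 0.014 in their deviations from the group means, and differently numbered ones at -0.34 to 0.27. With 3 libraries per group, these values cannot decide whether the numbers pair the samples. No paired analysis was possible for ConA because its libraries carry 1 to 3 and its controls 4 to 6. At the 0.05 level without a minimum fold, 8 to 9 members changed with PMA and 8 to 10 with ConA over the settings, the losses being BAX and, with ConA, BCL2L1. With 3 libraries per group the SE of a member's log2 change was 0.035 to 0.15, which limits the smallest change that can pass.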
